A study of Homo sapiens with 30 samples.

Results

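DRIP sequencing pulls RNA:DNA hybrids out of sheared genomic DNA with the S9.6 antibody and sequences the DNA. The peaks described here are every peak of the 4 deposited DRIP lists made without RNase H, from WT and hNABP2 KO cells, 460 peaks among 25503 in the 15 peak lists of the series. They were chosen by library alone, so no value of a peak decided its place here beyond its call in the deposited list. A position without a peak can therefore still hold signal that was not called. Libraries were assigned to genotype and repeat from their descriptions.

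All groups are HT1080, a human fibrosarcoma cell line, taken as nuclei at passages 10 to 15 with no treatment. The DRIP groups are WT and hNABP2 KO, with 2 repeats each. The anti-hNABP2 ChIP set beside them comes from WT cells only, with 2 repeats. The run-on libraries, in which nuclei extend engaged transcripts, are WT, hNABP2 KO and hNABP1 KO, with 3 repeats each. The sources used here do not give how the gene was disrupted, whether the KO is 1 clone, or whether repeats are separate cultures. A p-value therefore measures only the spread between these libraries. The 4 DRIP samples treated with RNase H, which degrades the RNA of a hybrid, are not analysed here, so no background measured the same way stands beside the peaks.

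An R-loop forms when RNA pairs with its template DNA strand behind the polymerase and leaves the other DNA strand single. Such hybrids are known at CpG-rich gene starts, at ribosomal and other heavily transcribed RNA genes, at repeats near centromeres and on mitochondrial DNA. hNABP2 (hSSB1) is a single-stranded DNA binding protein of the SOSS complex, which acts in DNA break repair.

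The hNABP2 KO repeat 2 library stood apart from the other 3. Its highest -log10 q was 229, against 6.61 and 5.76 in WT repeats 1 and 2 and 20.3 in hNABP2 KO repeat 1. It held 39 peaks at a -log10 q of 5 or more, against 4, 3 and 2. It also held all but 3 of the peaks on mitochondrial DNA, ribosomal DNA and unplaced sequence. The files give no read totals for these libraries, so the depth behind each list is unknown. Its part in these differences was not tested. Every result below is therefore given per library.

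Start windows of 6 genes show what sequence lay under promoter peaks, with bases inside the peak in capitals. Each run is the 250 bases upstream of the start, 5′ to 3′ on the gene's strand, from RefSeq GRCh38.p14. TOP1, chr20:41028572-41028821 on the plus strand, and ZNF202, chr11:123741661-123741910 on the minus strand, lay under WT repeat 1 peaks. GRPEL2, chr5:149345249-149345498 on the plus strand, lay under a WT repeat 2 peak. DHX30, chr3:47802888-47803137, and TATDN2, chr3:10248209-10248458, both on the plus strand, and UXS1, chr2:106194302-106194551 on the minus strand, lay under hNABP2 KO repeat 2 peaks. DHX30, TATDN2 and UXS1 were chosen after their values were seen, because the peak covered most of the window.
TOP1: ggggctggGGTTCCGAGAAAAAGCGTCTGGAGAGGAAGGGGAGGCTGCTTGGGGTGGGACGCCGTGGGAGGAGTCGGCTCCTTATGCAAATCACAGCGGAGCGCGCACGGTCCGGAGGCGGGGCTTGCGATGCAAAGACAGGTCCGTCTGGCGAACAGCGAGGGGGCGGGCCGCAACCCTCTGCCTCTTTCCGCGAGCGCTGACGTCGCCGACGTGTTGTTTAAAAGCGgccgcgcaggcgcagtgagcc
ZNF202: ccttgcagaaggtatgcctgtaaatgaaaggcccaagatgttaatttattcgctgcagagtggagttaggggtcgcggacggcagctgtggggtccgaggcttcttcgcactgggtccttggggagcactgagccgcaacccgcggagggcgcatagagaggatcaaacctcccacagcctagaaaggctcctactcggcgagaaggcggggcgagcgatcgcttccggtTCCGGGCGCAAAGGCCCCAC
GRPEL2: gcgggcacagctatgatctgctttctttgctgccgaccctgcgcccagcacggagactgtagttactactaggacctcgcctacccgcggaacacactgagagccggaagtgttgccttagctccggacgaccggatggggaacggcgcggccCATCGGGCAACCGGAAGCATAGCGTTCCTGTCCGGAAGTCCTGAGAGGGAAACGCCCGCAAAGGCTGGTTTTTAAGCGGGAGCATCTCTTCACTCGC
DHX30: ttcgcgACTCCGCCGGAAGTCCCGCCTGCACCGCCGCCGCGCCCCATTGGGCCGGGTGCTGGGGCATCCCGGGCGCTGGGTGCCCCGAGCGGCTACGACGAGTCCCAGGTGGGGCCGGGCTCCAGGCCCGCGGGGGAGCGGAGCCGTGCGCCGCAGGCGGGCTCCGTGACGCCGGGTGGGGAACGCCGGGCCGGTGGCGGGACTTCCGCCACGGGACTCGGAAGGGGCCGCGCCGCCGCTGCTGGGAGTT
TATDN2: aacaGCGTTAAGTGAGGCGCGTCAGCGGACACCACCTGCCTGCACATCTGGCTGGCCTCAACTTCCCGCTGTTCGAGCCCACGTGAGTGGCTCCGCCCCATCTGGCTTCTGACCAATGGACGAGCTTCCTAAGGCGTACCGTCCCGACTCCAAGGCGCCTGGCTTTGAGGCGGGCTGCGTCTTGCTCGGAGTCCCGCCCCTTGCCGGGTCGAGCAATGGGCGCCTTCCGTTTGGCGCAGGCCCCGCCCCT
UXS1: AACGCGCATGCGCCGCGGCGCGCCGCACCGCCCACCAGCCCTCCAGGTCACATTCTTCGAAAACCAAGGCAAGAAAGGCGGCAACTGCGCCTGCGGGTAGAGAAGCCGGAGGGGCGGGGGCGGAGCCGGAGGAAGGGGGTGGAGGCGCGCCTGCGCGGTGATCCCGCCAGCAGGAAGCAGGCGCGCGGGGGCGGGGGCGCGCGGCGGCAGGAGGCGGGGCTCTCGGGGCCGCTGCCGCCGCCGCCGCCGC
All 250 printed bases lay inside the peak at UXS1, 246 at TATDN2, 244 at DHX30, 221 at TOP1, 97 at GRPEL2 and 20 at ZNF202. G and C made up 79.2% of the printed bases at DHX30, 77.2% at UXS1, 66.8% at TOP1, 66.0% at TATDN2 and 60.8% at both GRPEL2 and ZNF202.

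WT and hNABP2 KO did not separate by the number of peaks. WT repeats 1 and 2 had 173 and 107 peaks, and hNABP2 KO repeats 1 and 2 had 13 and 167. The means were 140 ± 46.7 (SD, n = 2) in WT and 90 ± 109 (SD, n = 2) in hNABP2 KO, a difference of -50 (exact two-sided permutation test over libraries, p = 0.667). The groups overlapped, and the 2 knockout libraries lay farther from each other than the WT libraries did. With 2 libraries against 2, no difference can give a p below 0.333. Within repeat 1 the knockout had 160 fewer peaks, a difference of -160, and within repeat 2 it had 60 more.

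Peaks were narrow in all 4 lists, with median widths of 194 and 242 bp in WT and 225 and 209 bp in hNABP2 KO. They covered 35489 and 26890 bp in WT repeats 1 and 2, and 4539 and 42238 bp in hNABP2 KO repeats 1 and 2 (exact two-sided permutation test, p = 1). The fold is the deposited enrichment ratio of a peak over background, and it describes 1 peak in 1 library. Its median was 5.03 and 3.81 in WT, and 5.48 and 4.47 in hNABP2 KO (exact two-sided permutation test, p = 0.667). In both genotypes repeat 1 had the higher median fold.

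**Figure D1:**
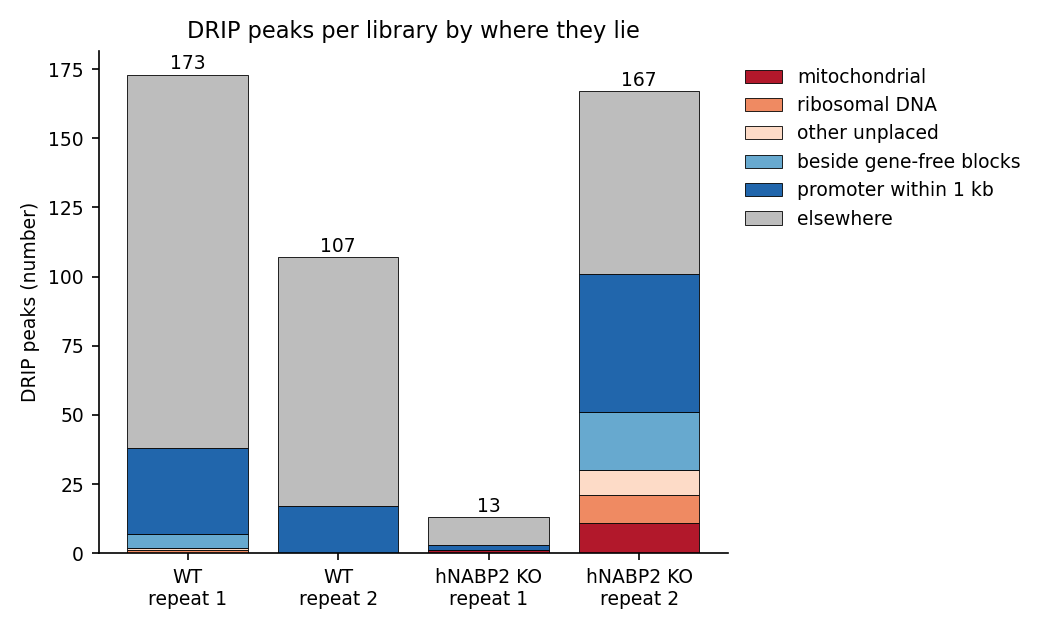
Stacked bars give the number of DRIP peaks in each of the 4 libraries (y axis, number of peaks), coloured by where the peak lies; gene-free blocks are stretches of at least 2 Mb with no RefSeq gene, and peaks within 2 Mb of one count as beside it. The hNABP2 KO repeat 2 bar has 51 of its 167 peaks in the 4 lower colours, against 7 of 173 in WT repeat 1, 0 of 107 in WT repeat 2 and 1 of 13 in hNABP2 KO repeat 1.

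Many peaks in a list carried the same value. In WT repeat 2, 67 of 107 peaks (62.6%) had the same -log10 q of 1.30, the lowest in the list, and the 107 peaks took only 10 distinct values. In hNABP2 KO repeat 2, 56 of 167 peaks shared a -log10 q of 1.79. In WT repeat 1 the commonest value, 2.49, was held by 31 of 173 peaks. Peaks tied in this way cannot be ranked among themselves. Within hNABP2 KO repeat 2, the -log10 q differed by position. The median -log10 q was 15.4 for mitochondrial and 15.3 for ribosomal DNA peaks, 5.32 on other unplaced sequence, 3.48 beside gene-free blocks, 3.00 at promoters and 1.79 elsewhere. The median fold ran differently. It was lowest for mitochondrial peaks, 2.82, and was 3.81 for ribosomal DNA peaks and 3.84 elsewhere. At promoters it was 4.72, beside gene-free blocks 5.91 and on other unplaced sequence 6.40.

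**Figure D2:**
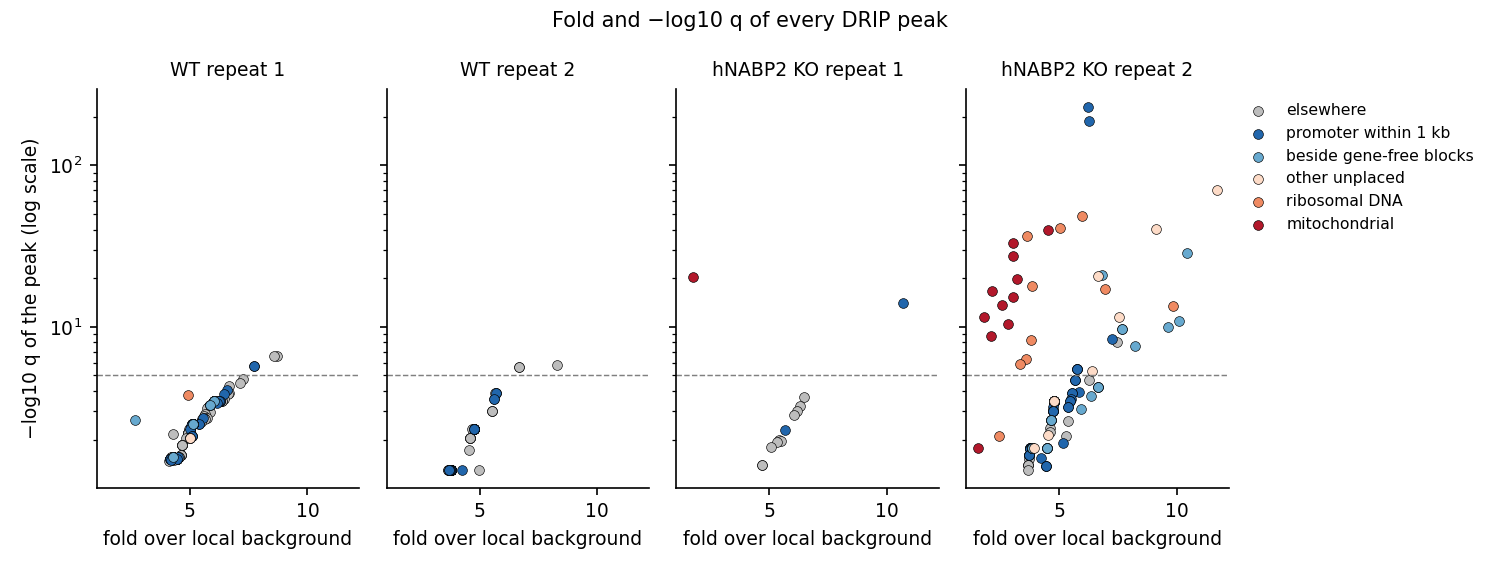
Each point is a DRIP peak, with its fold over local background (x axis) and its -log10 q (y axis, log scale), 1 panel per library, coloured by where the peak lies; the dashed line marks a -log10 q of 5. The WT panels end at 6.61 and 5.76, while the hNABP2 KO repeat 2 panel reaches 229 and its mitochondrial peaks have high -log10 q at folds of 1.56 to 4.55.

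Almost no position was called in more than 1 library. The 460 peaks merged into 459 regions, and 1 region was in 2 libraries. It lay in distal intergenic sequence beside the gene-free block of chromosome 16. There, hNABP2 KO repeat 2 had a peak at chr16:46390279-46390844 with a fold of 6.83 and a -log10 q of 20.9. WT repeat 1 had one at chr16:46390504-46390731 with a fold of 2.66 and a -log10 q of 2.64. The shared region was 0.578% of the WT repeat 1 list and 0.599% of the hNABP2 KO repeat 2 list. No region was shared by both repeats of WT or by both repeats of hNABP2 KO. ANKRD26P1, a pseudogene annotated nearest to that region, was also the only nearest gene that 2 lists had in common. Another hNABP2 KO repeat 2 peak near ANKRD26P1 had a fold of 10.1 and a -log10 q of 10.9.

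The 2 highest peaks of hNABP2 KO repeat 2 lay on short RNA genes transcribed by RNA polymerase III. RMRP, the RNA of RNase MRP, had a peak at chr9:35657773-35657995 with a fold of 6.24 and a -log10 q of 229. RN7SK, whose RNA keeps P-TEFb, a kinase of transcription elongation, in an inactive complex, had one at chr6:52995635-52995906 with a fold of 6.28 and a -log10 q of 190. RN7SL1 and RN7SL2, near-identical genes for the 7SL RNA of the signal recognition particle, had peaks with folds of 7.26 and 5.82 and -log10 q of 8.44 and 3.95. Reads of RN7SL1 and RN7SL2 cannot be assigned to 1 copy with certainty. The other 3 libraries had no peak at any of these 4 genes. One more listed gene of hNABP2 KO repeat 2 was annotated as a U6 copy. In WT repeats 1 and 2 the listed small RNA genes nearest to a peak were pseudogene copies, 6 and 2 of them, such as RNU6-4P.

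These RNA genes also gave run-on counts, with and without added nucleotides (NTP). RMRP had 6761, 14278 and 402 CPM (counts scaled to the library total) in WT repeats 1 to 3 with NTP, and 4341, 3191 and 716 in hNABP2 KO. Without NTP, RMRP had 11063, 6829 and 2338 CPM in WT and 14606, 17506 and 1146 in hNABP2 KO. The ranges overlapped between genotypes and between libraries with and without NTP. RN7SK ranged from 864 to 4420 CPM in WT and from 1052 to 2349 in hNABP2 KO with NTP. Without NTP its range was 3035 to 35018 CPM in WT and 1328 to 9289 in hNABP2 KO. On the log2 scale, hNABP2 KO minus WT with NTP was -0.78 (SE 0.66) at RMRP and -0.22 (SE 0.71) at RN7SK, both with an adjusted p of 0.990 by edgeR's quasi-likelihood test. RN7SL1 stood at 1.31 (SE 1.42), with 54, 1 and 3 counts in hNABP2 KO and 13, 0 and 7 in WT.

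**Figure D3:**
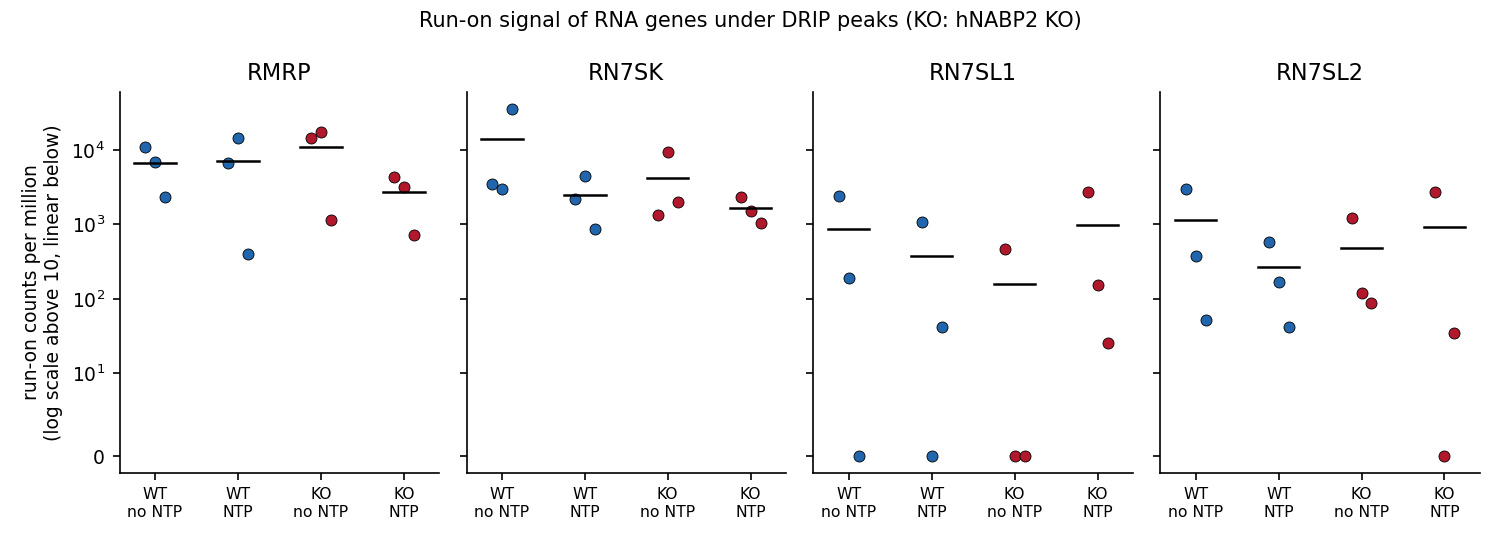
Points are run-on libraries, 3 per group, and lines are their means, in CPM (y axis, log scale above 10 and linear below) for RMRP, RN7SK, RN7SL1 and RN7SL2 in WT and hNABP2 KO with and without NTP. At the same NTP setting, WT and hNABP2 KO overlap in every panel, and RMRP without NTP reaches 17506.

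Ribosomal DNA, taken as chr22_KI270733v1_random and sequence within 25 kb of a 45S gene on chromosome 21, held 10 peaks of hNABP2 KO repeat 2. WT repeat 1 had 1 there, and WT repeat 2 and hNABP2 KO repeat 1 had 0. The 45S genes encode the precursor of the 18S, 5.8S and 28S ribosomal RNAs. The highest of the 10 lay at chr21:8214635-8214832 inside RNA28SN2 and RNA45SN2, with a fold of 5.95 and a -log10 q of 48.5. Another at chr21:8213117-8213363, in RNA45SN2 outside the mature RNAs, had a fold of 3.84 and a -log10 q of 17.9. RNA45SN3 had one at chr21:8396632-8396827 with a fold of 9.83 and a -log10 q of 13.5. The peak at chr21:8234223-8234626 lay in no RefSeq gene and had a -log10 q of 36.4. The 45S copies are near-identical, so these positions mark the repeat unit rather than 1 copy. With 0 peaks in lists of 107 and 13, a limit of 3 counts allows shares of up to 2.80% and 23.1%, and the exact 95% intervals reach 3.39% and 24.7%. The share in hNABP2 KO repeat 2 was 5.99% (exact interval 2.91% to 10.7%), which overlaps both.

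Mitochondrial DNA held peaks in both hNABP2 KO libraries and in neither WT library. hNABP2 KO repeat 2 had 11, covering 5172 bp, with folds of 1.56 to 4.55. The highest -log10 q among them was 40.0, at chrM:7775-8023 near MT-CO2, a subunit of cytochrome oxidase. Peaks near MT-CYB, MT-ND4 and MT-CO1, which encode other respiratory chain subunits, had -log10 q of 33.1, 27.3 and 19.6. hNABP2 KO repeat 1 had 1 such peak, at chrM:2234-2643 near MT-RNR2, the 16S ribosomal RNA gene, with a fold of 1.77 and a -log10 q of 20.3. It overlapped none of the 11. A count of 0 allows a mitochondrial share of up to 1.73% in WT repeat 1 and 2.80% in WT repeat 2 by the limit of 3 counts, and 2.11% and 3.39% by the exact interval. The share was 6.59% (exact interval 3.33% to 11.5%) in hNABP2 KO repeat 2 and 7.69% (0.195% to 36.0%) in hNABP2 KO repeat 1, so the interval of each knockout library overlapped that of at least 1 WT library. With 2 libraries per genotype no test was made of this split, and the number of mitochondrial peaks also varied within genotypes in the run-on lists, from 0 to 2 in WT and from 0 to 12 in hNABP2 KO.

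All 11 mitochondrial peaks of hNABP2 KO repeat 2 overlapped a run-on peak of hNABP2 KO repeat 3, 10 overlapped one of hNABP1 KO repeat 3 and 2 overlapped one of WT repeat 3. In the anti-hNABP2 ChIP from WT cells, 9 of the 11 overlapped a peak of repeat 1 and 0 overlapped a peak of repeat 2, which had no mitochondrial peak at all. Mitochondrial peaks summed to 9468 bp in ChIP repeat 1. In the run-on lists they summed to 6768 bp in hNABP2 KO repeat 3, 8802 bp in hNABP1 KO repeat 3 and 403 bp in WT repeat 3. Whether this coverage alone gives such overlaps was not tested. Peaks on this genome therefore appeared in DNA and RNA libraries of several genotypes, and the mitochondrial share of each library was not tested as a source of them.

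Beside gene-free blocks, such as those at centromeres, lay 21 peaks of hNABP2 KO repeat 2 (12.6%, 95% exact Clopper-Pearson interval 7.96% to 18.6%), against 5 of WT repeat 1 (2.89%, 0.945% to 6.62%) and 0 of the other 2 libraries. Chromosome 1 had 7 of the 21, chromosome 10 had 5 and chromosome 16 had 4. The highest fold was 10.4, at chr1:125180043-125180413, with a -log10 q of 28.8. Unplaced sequence other than the ribosomal contig held another 9 peaks of hNABP2 KO repeat 2. Of these, chrUn_KI270438v1:103945-104313 had a fold of 11.7 and a -log10 q of 70.4, and chrUn_KI270438v1:104824-105098 had a fold of 9.10 and a -log10 q of 40.3. Repeats in such regions can be collapsed in the assembly, so a high fold there can hold reads from many copies.

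At gene starts, hNABP2 KO repeat 2 had the larger share of peaks. Of annotated nuclear peaks, 54 of 141 (38.3%, exact interval 30.2% to 46.9%) lay within 1 kb of a start in that library. The shares were 31 of 170 (18.2%, 12.7% to 24.9%) in WT repeat 1, 17 of 106 (9.63% to 24.4%) in WT repeat 2 and 2 of 11 (18.2%, 2.28% to 51.8%) in hNABP2 KO repeat 1. Those intervals cover counting error only. The share in hNABP2 KO repeat 1 lay at the level of WT, so the genotypes were not separated. Over all annotated peaks the mean share was 17.1% in WT and 33.9% in hNABP2 KO, with 25.0% and 42.8% in its repeats 1 and 2 (exact two-sided permutation test, p = 0.333, the smallest this design allows). Without mitochondrial peaks, which the annotation places within 1 kb of a start, the difference of the means was 11.1 percentage points in place of 16.7 and the p was 0.667. With starts within 3 kb it was 6.12 percentage points (exact permutation p = 1), and with only peaks at a -log10 q of 5 or more, 4, 3, 2 and 39 in the lists, it was 70.8 (exact permutation p = 0.333). Both settings kept the mitochondrial peaks. At a -log10 q of 5 or more there were 10 of these in hNABP2 KO repeat 2, beside 7 promoter peaks outside the repeat groups. In hNABP2 KO repeat 1 there was 1 of each. The 70.8 therefore does not describe nuclear gene starts alone.

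Peaks directly over a start were also most frequent in hNABP2 KO repeat 2. In hNABP2 KO repeat 2, 32 of 141 annotated nuclear peaks covered one, 22.7%. The counts were 6 of 170 (3.53%) in WT repeat 1, 5 of 106 (4.72%) in WT repeat 2 and 1 of 11 (9.09%) in hNABP2 KO repeat 1. Introns held 34.1% and 37.7% of these peaks in WT repeats 1 and 2, and 45.5% and 21.3% in hNABP2 KO repeats 1 and 2. Distal intergenic sequence held 27.1% and 20.8% in WT, and 18.2% and 31.2% in hNABP2 KO.

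The protein-coding starts with the highest -log10 q in hNABP2 KO repeat 2 were those of NUCB2, VSIG10, RNASE12 and GCSH, all with a fold of 5.75 and a -log10 q of 5.45. NUCB2 encodes a calcium-binding protein and GCSH a subunit of the glycine cleavage system. DHX30, an RNA helicase, had a peak of 780 bp at chr3:47802894-47803673 with a fold of 5.67. HMGCS1, an enzyme of cholesterol synthesis, had the same fold and -log10 q. DDB1, which binds UV-damaged DNA, and EPAS1, a hypoxia-inducible transcription factor, both had a fold of 5.54 and a -log10 q of 3.90. TDP2, which removes trapped topoisomerase from DNA ends, had a fold of 5.37, and PBRM1, a subunit of the PBAF chromatin remodeller, one of 4.44. The peaks at DDB1, TDP2 and PBRM1 also touched start windows of the neighbouring genes TKFC, ACOT13 and GNL3. They cannot be given to a single gene. None of these starts had a peak in another DRIP library, which was so for almost every peak of all lists. These examples were taken from the 50 promoter peaks outside the repeat groups after their values were seen.

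Promoter peaks of WT lay at other genes, but the repeats of each genotype also shared 0 nearest genes with each other. Their median fold was 5.16 in WT repeat 1 and 3.81 in WT repeat 2, beside 4.72 in hNABP2 KO repeat 2, and their median -log10 q was 2.49, 1.30 and 3.00. In WT repeat 1 the highest was at ZNF202, a zinc finger transcription factor, at chr11:123741394-123741680 with a fold of 7.74 and a -log10 q of 5.70. TOP1, the topoisomerase that relaxes supercoiled DNA, had a peak at chr20:41028580-41028800 with a fold of 5.06 and a -log10 q of 2.44. It was the only 1 of 19 listed SOSS and R-loop factor genes nearest to a peak in any of the 4 libraries. WT repeat 1 had 169 nearest genes, beside 26475 genes in the run-on count table, so 1 of 19 says little about these factors. In WT repeat 2 the highest promoter peak was at GRPEL2, a mitochondrial chaperone cofactor, with a fold of 5.71 and a -log10 q of 3.90.

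The highest peak of each WT list lay more than 1 kb from a start. In WT repeat 1, LINC02074 and LINC02527 were nearest to peaks with a -log10 q of 6.61 each, and the fold at LINC02074 was 8.69. In WT repeat 2, a peak at chr16:55214358-55214571, 77104 bp from the nearest annotated start, had a fold of 8.30 and a -log10 q of 5.76. An intron of a PTK7 transcript held one with a fold of 6.67 and a -log10 q of 5.64.

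The 13 peaks of hNABP2 KO repeat 1 included the widest nuclear peak of the 4 lists. It spanned 1642 bp, chrX:23000292-23001933, over DDX53, an intronless DEAD-box helicase gene, with a fold of 10.7 and a -log10 q of 14.1. No other library had a peak there. DDX53 had 0 run-on counts in each of the 3 WT libraries with NTP, 3, 0 and 6 in hNABP2 KO repeats 1 to 3, and 1, 0 and 2 in hNABP1 KO. These counts were too low for edgeR's test, so no difference between genotypes can be read from them. After the mitochondrial and DDX53 peaks, the next -log10 q was 3.65, in an intron of the lncRNA gene PVT1. The other 10 lay near IFITM3P3, CACNA1A, TRAP1, EXTL3-AS1, POLR2M, UNC5A, RPS15AP30, ARF4 and CLTCL1 and at chr1:23530957-23531204, which the annotation lacks, with folds of at most 6.30 and -log10 q of at most 3.25.

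Loci often used to check DRIP were not the nearest gene of any peak. None of the hybrid-positive loci RPL13A, CALM3, TFPT, ACTB, MYADM, APOE and BTBD19 and none of the 3 hybrid-negative loci (SNRPN, ZNF554 and EGR1) was the nearest gene of a peak in any library. MALAT1 and NEAT1, abundant nuclear RNAs, had none either. Each DRIP list held only 12 to 169 nearest genes, beside 26475 genes in the run-on count table. With so few genes called, most short gene lists would hold none. These absences therefore say little about the loci themselves. Among replication-dependent histone genes, 1 pseudogene, H2AC2P, was nearest to a WT repeat 1 peak. Only 74.7%, 77.4%, 91.7% and 66.4% of annotated peaks in WT repeats 1 and 2 and hNABP2 KO repeats 1 and 2 had a nearest gene with a RefSeq match, so a comparison by gene biotype is void.

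Start windows under the peaks of 3 libraries were richer in G and C than the median window. RefSeq windows of 250 bases before to 50 after a start numbered 35116, with a median of 58.7% G and C. The 47 windows that hNABP2 KO repeat 2 peaks touched, under 34 peaks, had a median of 71.3%, and the 7 of WT repeat 1 and the 4 of WT repeat 2 had 70.0% and 67.2%. The 1 window of hNABP2 KO repeat 1 had 59.7%. GGGCGG on either strand was in 37 of the 47 windows (78.7%), against 15786 of all 35116 windows, and in 5 of 7, 2 of 4 and 0 of 1 windows of WT repeats 1 and 2 and hNABP2 KO repeat 1. CCAAT was in 15 of the 47 (31.9%), against 34.6%, and TATAAA in 2 (4.26%), against 11.5%. In WT repeats 1 and 2 and hNABP2 KO repeat 1, CCAAT was in 2 of 7, 1 of 4 and 0 of 1, and TATAAA in 0 of each. At least 4 runs of GGG spaced by 1 to 7 bases, on either strand, were in 17 of the 47 (36.2%), in 4 of 7 windows of WT repeat 1, in 0 of 4 of WT repeat 2, in the 1 of hNABP2 KO repeat 1, and in 25.0% of all windows. Some of the 47 windows overlap each other, since divergent genes and neighbouring starts share bases. A match describes the letters and is not a binding site.

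Promoter peaks of hNABP2 KO repeat 2 lay often where anti-hNABP2 ChIP from WT cells had a peak. Of the 50 promoter peaks outside the repeat groups, 32 (64.0%, exact interval 49.2% to 77.1%) overlapped a ChIP repeat 1 peak by at least 1 bp. The counts were 9 of 31 (29.0%, 14.2% to 48.0%) in WT repeat 1, 1 of 17 (5.88%, 0.149% to 28.7%) in WT repeat 2 and 0 of 2 in hNABP2 KO repeat 1. Over windows rather than peaks, 23.9% of all 35116 RefSeq start windows touched a ChIP repeat 1 peak, and 35 of the 47 under hNABP2 KO repeat 2 peaks (74.5%) did, as did 4 of 7 under WT repeat 1 peaks (57.1%), 0 of 4 under WT repeat 2 peaks and 0 of 1 under hNABP2 KO repeat 1 peaks. On the hNABP1 KO repeat 3 run-on list, which is no ChIP, lay 31 of the same 47 windows (66.0%) and 18.1% of all windows. The start windows on ChIP repeat 1 peaks had a median of 70.3% G and C, close to the 71.3% of the 47, and G and C content was not tested as a source of the overlap. The difference between libraries was not tested, since each genotype has 2 libraries and 1 of them has 2 such peaks.

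**Figure D4:**
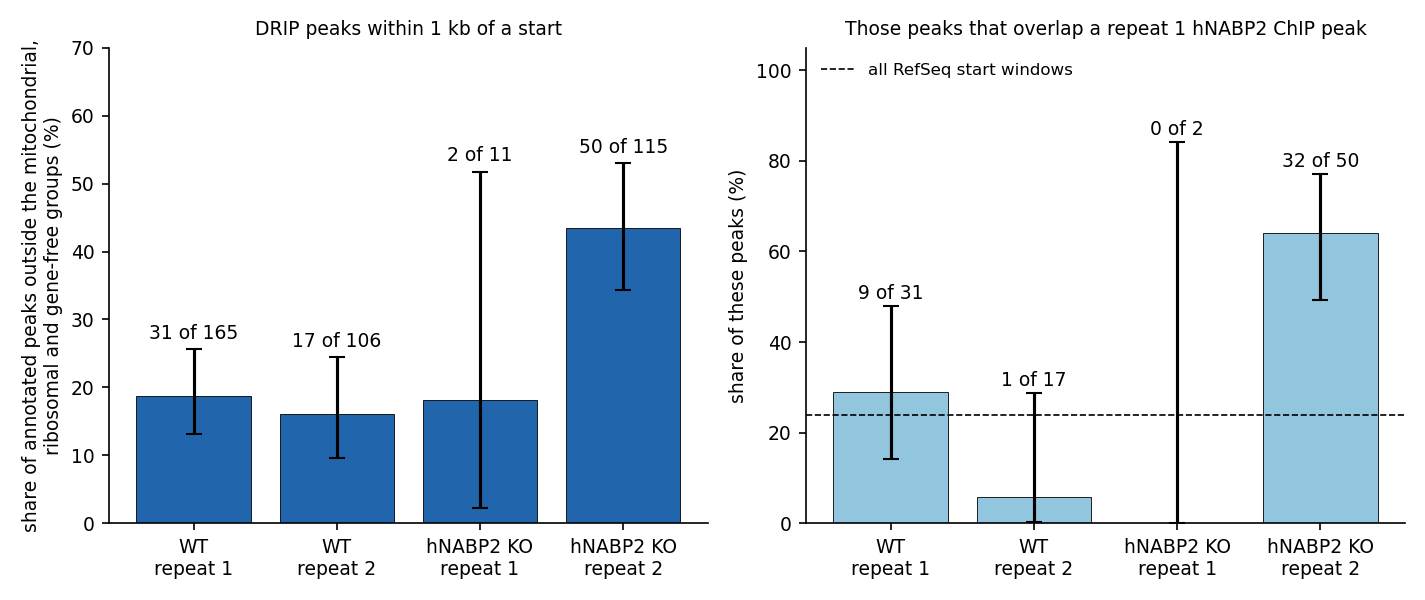
Left, share of annotated peaks outside the mitochondrial, ribosomal, unplaced and gene-free groups that lie within 1 kb of a start; right, share of those promoter peaks that overlap an anti-hNABP2 ChIP repeat 1 peak, with the dashed line at the 23.9% of all RefSeq start windows that do. Bars are single libraries and error bars are 95% exact Clopper-Pearson intervals; hNABP2 KO repeat 2 stands at 43.5% and 64.0%, WT repeat 1 at 18.8% and 29.0%. The bars count peaks and the line counts start windows, so they are unlike measures. By windows, hNABP2 KO repeat 2 had 74.5%, WT repeat 1 57.1%, and WT repeat 2 and hNABP2 KO repeat 1 0%.

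Outside promoters the overlap differed by group. In hNABP2 KO repeat 2, 9 of 11 mitochondrial peaks lay on ChIP repeat 1 and 7 of 10 ribosomal DNA peaks on ChIP repeat 2. The length that the ChIP peaks cover in each group was not taken into account. Of 66 peaks outside both promoters and the repeat groups in hNABP2 KO repeat 2, 1 overlapped a ChIP repeat 1 peak, and of the 135 in WT repeat 1 and 90 in WT repeat 2, 0 did, which allows up to 2.70% and 4.02% at the upper end of the exact interval. Over whole lists, 46 of 167 hNABP2 KO repeat 2 peaks (27.5%) and 9 of 173 WT repeat 1 peaks (5.20%) overlapped ChIP repeat 1. Seen from the ChIP list, 43 and 9 of its 10055 peaks with intervals (0.428% and 0.0895%) overlapped these DRIP peaks. With ChIP repeat 2, which has 2832 peaks, the counts were 13, 1, 0 and 0 for hNABP2 KO repeat 2, WT repeat 1, WT repeat 2 and hNABP2 KO repeat 1. Of those 13, 7 lay on ribosomal DNA and 6 at promoters, and all 6 promoters, AL133346.1, RFX2, PRDM2, XPNPEP1, UXS1 and PBRM1, also overlapped ChIP repeat 1.

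Single promoters show how the 2 assays compared. At NUCB2 the ChIP repeat 1 peak had a fold of 6.45 and a -log10 q of 101. At UXS1, whose window is printed above, ChIP repeats 1 and 2 had folds of 3.36 and 8.52, and at DHX30 repeat 1 had 3.50. At RMRP and RN7SK, ChIP repeat 1 had folds of 2.59 and 4.32. ZNF202, SUCLG2 and MAT2A were among the 9 WT repeat 1 promoters on a ChIP repeat 1 peak, with ChIP folds of 2.88, 4.02 and 4.32. The DRIP peaks at TOP1 and GRPEL2 overlapped no ChIP peak of either repeat.

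Run-on peaks under the hybrids differed by library too. In hNABP2 KO repeat 2, 22 of 167 DRIP peaks (13.2%, exact interval 8.44% to 19.3%) overlapped a peak of any hNABP2 KO run-on library, and 11 of the 22 were mitochondrial. In hNABP2 KO repeat 1 it was 1 of 13, also mitochondrial. WT repeat 1 had 1 of 173 on a WT run-on peak, at the SUCLG2 promoter, and WT repeat 2 had 0 of 107, which allows up to 2.80% by the limit of 3 counts. These run-on lists hold 676 peaks for hNABP2 KO and 553 for WT. The hNABP1 KO repeat 3 run-on list stood apart with 9965 peaks. It overlapped 56 hNABP2 KO repeat 2 peaks (33.5%), 8 WT repeat 1 peaks, 2 WT repeat 2 peaks (1.87%) and 0 of hNABP2 KO repeat 1. Without it, the most that any run-on list shared with hNABP2 KO repeat 2 was 15 peaks, with hNABP2 KO repeat 3.

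Run-on transcription of the genes under these peaks could be tested for few of them. The libraries with NTP held 5883 to 164357 counts, and 129 of 26475 genes passed the filter on low counts. edgeR's quasi-likelihood test called 0 of 129 genes between hNABP2 KO and WT (0%), with 0 at an unadjusted p under 0.05. DESeq2, run without that filter, gave 22333 genes an adjusted p and called 0, with 1 at an unadjusted p under 0.05. With so few small p-values among that many genes, the 0 calls do not show that transcription was unchanged. Only 3 of the 129 genes, RMRP, RN7SK and RN7SL1, had a peak within 1 kb of their start, and no direction was called for them. Over the 76 nearest genes of hNABP2 KO repeat 2 peaks in the count table, the median over genes of the group mean, scaled with TMM, was 17.7 CPM in WT and 26.3 in hNABP2 KO, beside 7.70 and 9.24 over all genes. For the 91 of WT repeat 1 these medians were 13.9 and 16.2. All of these medians are less than 1 count in a library of 5883, so a difference between genotypes cannot be read from them. NABP2 itself had 4, 0 and 8 run-on counts in WT and 4, 3 and 15 in hNABP2 KO, too few to check the labels. The summed level of 6 mesenchymal markers was 1039 to 24092 CPM in WT and 1642 to 9955 in hNABP2 KO. In WT repeat 2, COL5A1 alone had 22968 CPM. The sum of 5 epithelial markers was 120 to 3371 CPM in WT and 166 to 1986 in hNABP2 KO, which overlapped the mesenchymal range. For 4 neural markers it was 0 to 231 and 199 to 376 CPM. The 5 leukocyte markers, 1 of them at 0, reached 198 and 90.1 CPM at most.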

How the data were processed

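The 4 DRIP peak lists came from libraries of WT and hNABP2 KO HT1080 cells without RNase H. Per the submitters' processing notes, cutadapt 1.18, Bowtie2 2.3.5, SAMtools and MACS2 2.2.1 were used with hg38; their order, settings and control libraries are not known from the sources used here. The deposited lists give for each peak a fold (a ratio over local background), a -log10 p and a -log10 q. The deposited annotation tables add the nearest gene and its distance; they lack 3, 1, 1 and 15 DRIP peaks of WT repeats 1 and 2 and hNABP2 KO repeats 1 and 2, among them the first peak of each list. ChIP repeat 1 gave intervals for 10055 peaks, from its annotation table. The deposited run-on table holds raw counts by gene, with no normalization by the authors.

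Peaks were compared by overlap of at least 1 bp, and libraries by exact permutation tests of 2 against 2. Run-on counts with NTP were fitted over all 9 libraries with edgeR 4.0.16 (filterByExpr, TMM, quasi-likelihood F test, Benjamini-Hochberg adjustment, 0.05), and DESeq2 1.42.0 was an alternative. In tests on simulated data, recovery of changed genes was required only at a depth far above that of these libraries. Simulations at their own depth were also run, but no recovery was required of them and what they recovered is not reported here. What the test can find at that depth is therefore not stated. In the run-on libraries WT and hNABP2 KO samples of the same number deviated together (correlations 0.843, 0.733 and 0.658). Samples of different numbers were not correlated, and depth differed between the numbers. These values therefore do not show whether the numbers pair the samples, and the main fit did not use them as pairs. Named peaks are all those of a list with at most 15 peaks, the 10 highest by -log10 q of the others, regions in 2 libraries, members of the listed gene groups, and examples marked as chosen after their values were seen. The position groups were drawn after seeing the data, and members and lists were chosen with earlier results of these data known. Repeat-masked content and sequence under peaks away from starts were not analysed here. Some named peaks and listed loci are not reported here.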

Additional observations from a re-analysis of the deposited data

How the results depend on the processing

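The direction of the peak number was not stable. The difference of the means, hNABP2 KO minus WT, was -50 peaks and became 17 with only peaks at a -log10 q of 5 or more and 2 with only peaks at a fold of 10 or more. Leaving out 1 library gave -127 to 27, the positive value without hNABP2 KO replicate 1. The median fold difference of 0.56 ranged from -0.054, without WT replicate 2, to 1.17, and the promoter share difference of 16.7 percentage points from 7.86 to 25.6. That share difference was 6.12 for starts within 3 kb and 70.8 for peaks at a -log10 q of 5 or more, both with mitochondrial peaks included. In the paired form (replicate block, labels exchanged within a repeat), the differences were -50 and 0.56 again, with exact p of 1 and 0.5, the latter the smallest this design allows; the block called 0 run-on genes, with 4 at an unadjusted p under 0.05. The single overlap between libraries became 0 at 50% of both peaks, 2 within 1000 bp, and 0 at a -log10 q of 5 or more. The second overlap joined mitochondrial peaks of the 2 hNABP2 KO libraries. Shares of DRIP peaks on ChIP peaks of either repeat, 5.78%, 0.935%, 7.69% and 30.5% in WT repeats 1 and 2 and hNABP2 KO repeats 1 and 2, became 0.578%, 0%, 0% and 7.78% with ChIP repeat 2 alone. The cause was not tested. Limiting peaks to chromosomes 1 to 22, X and Y, merging within 1000 bp, or, added after seeing the data, leaving out the position groups kept the sign of the difference in peak number. No alternative called a run-on gene. The share of repeat-masked bases was not run. What limits these results is 2 libraries per genotype of unknown depth, ties at the lowest -log10 q, and run-on totals too small to test most genes.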
